A study of Mus musculus with 7 samples.

Results

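Pla2g4b, Ica1, Fam110c, Tbc1d2 and Xdh are 5 genes whose transcripts lay higher in mouse embryonic fibroblasts with defective Mdm2 than in fibroblasts that lack only p53. They were picked by gene symbol out of 29955 gene rows, and were chosen by their measured levels: in both Mdm2-defective genotypes the group mean lay above that of the p53 ko group. Their height over p53 ko is therefore a description and was not tested. The difference between the 2 Mdm2-defective genotypes holds no p53 ko level and played no part in the choice. It was tested, with a spread shared over all 7 libraries, p53 ko included.

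RNA sequencing covered 7 libraries of C57BL/6 mouse embryonic fibroblasts (MEF), which are connective tissue cells grown from embryos. The groups were p53 ko (3 libraries), p53Mdm2 ko (2 libraries) and p53ko Mdm2 C462A ki (2 libraries), and all of them, the controls included, lacked p53. The p53Mdm2 ko cells also lacked Mdm2, and the p53ko Mdm2 C462A ki cells carried a knock-in of the C462A substitution in Mdm2. The labels give neither the design of the alleles nor the number of embryos or cultures behind the replicates. The p-values thus measure only the spread between these libraries. Xist, an RNA of the inactive X chromosome, had 2517, 60.3 and 42380 normalized reads in p53 ko. It had 2492 and 55500 in p53Mdm2 ko and 38330 and 89.96 in p53ko Mdm2 C462A ki. With the Y-linked reads given below, the replicates of a genotype differed too much to be repeats of 1 RNA sample. No treatment, age or passage is named.

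Mdm2 attaches ubiquitin to p53 and so sends it to the proteasome, and C462A replaces a cysteine of its RING domain that this activity needs. Since all groups lack p53, the genotypes were compared in its absence. The study's title names the Polycomb repressor complex PRC2 as the route of interest. The 5 genes belong to no single pathway. Pla2g4b encodes a cytosolic phospholipase A2 that cuts fatty acids such as arachidonic acid from membrane lipids, the step that feeds prostaglandin and leukotriene synthesis. Xdh encodes xanthine dehydrogenase, the molybdenum enzyme that makes uric acid in purine breakdown. Tbc1d2 encodes a TBC domain protein that switches off the small GTPase Rab7, which steers late endosomes, and that binds Rac1. Ica1 encodes a protein with a membrane-curving BAR-type domain that binds Rab2 and serves secretory granule formation. Fam110c encodes a protein of centrosomes and microtubules.

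The letters just before the start of transcription are shown for the genes with an entry in the RefSeq promoter table (build GRCm38.p6), because genes that lie high in the same libraries invite a look at what their starts have in common. Of the 5 genes 3 had an entry. No sequence is given for Pla2g4b or Xdh. Jmjd7, which lies next to Pla2g4b, is added, and its levels are given with Pla2g4b. Each line holds the 250 bases before the start, 5′ to 3′ on the gene's own strand, with the GC box GGGCGG in capitals wherever it stands on that strand. The windows are chr6:8778485-8778734 on the minus strand for Ica1, chr12:31073718-31073967 on the plus strand for Fam110c, chr4:46650200-46650449 on the minus strand for Tbc1d2 and chr2:120027233-120027482 on the plus strand for Jmjd7.
Ica1: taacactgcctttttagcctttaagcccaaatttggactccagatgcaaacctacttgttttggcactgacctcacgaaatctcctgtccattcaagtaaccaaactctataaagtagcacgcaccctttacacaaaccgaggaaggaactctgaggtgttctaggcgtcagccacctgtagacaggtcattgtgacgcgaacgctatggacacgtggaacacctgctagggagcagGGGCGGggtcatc
Fam110c: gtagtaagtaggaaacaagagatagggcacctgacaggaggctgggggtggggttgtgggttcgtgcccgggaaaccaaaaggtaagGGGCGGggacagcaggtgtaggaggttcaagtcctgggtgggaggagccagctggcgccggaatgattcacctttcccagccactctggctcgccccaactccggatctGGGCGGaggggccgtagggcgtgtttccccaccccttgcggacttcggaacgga
Tbc1d2: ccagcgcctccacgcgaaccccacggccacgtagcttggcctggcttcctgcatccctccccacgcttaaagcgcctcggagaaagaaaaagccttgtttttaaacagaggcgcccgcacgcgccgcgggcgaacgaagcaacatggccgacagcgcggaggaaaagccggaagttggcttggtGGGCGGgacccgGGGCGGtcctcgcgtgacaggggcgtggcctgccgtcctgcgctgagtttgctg
Jmjd7: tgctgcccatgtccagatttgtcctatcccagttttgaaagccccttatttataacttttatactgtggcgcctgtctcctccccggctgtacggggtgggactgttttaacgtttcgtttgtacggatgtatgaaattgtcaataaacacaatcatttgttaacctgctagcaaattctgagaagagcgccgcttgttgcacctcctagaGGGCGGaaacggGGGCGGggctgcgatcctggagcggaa

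The GC box stood in all 4 windows shown, and 32.7% of the 32851 promoter windows in the table held it on either strand. Its first base lay 13 bases before the start in Ica1, 163 and 54 in Fam110c, 66 and 54 in Tbc1d2, and 39 and 27 in Jmjd7. The letters GCGTG, the core of the xenobiotic response element, stood once in Ica1, once in Fam110c, at 5 places in Tbc1d2 and nowhere in the Jmjd7 window, against 28.2% of all windows with at least 1. The E box CACGTG was found in Ica1 (6.02% of all windows), 39 bases before the start. TGACNNNGC, the core of the antioxidant response element, was found in Ica1 (10.2%), where it overlaps the GC box. The AP-1 letters TGANTCA were found in Fam110c (6.75%), the TATA box TATAAA in Ica1 and Jmjd7 (12.4%), and neither the CCAAT box CCAAT (33.8%) nor the p53 half-site (7.13%) in any of the 4. Both strands were searched for each motif. CpG pairs numbered 28 in Tbc1d2, 13 in Fam110c, 13 in Jmjd7 and 9 in Ica1, against a median of 6 over all windows, so that 92.4% of windows held fewer than Tbc1d2. Ica1 has a second start in the table, whose window held 0 CpG pairs, no GC box, and the letters TATAAA and CCAAT. These are matches of letters, and no binding was measured.

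The libraries held between 28468283 and 41453822 reads, recovered from the deposited values as described with the processing, and levels below are normalized reads. A count of 0 reads allows up to 3 reads, which is between 2.65 and 3.86 normalized reads in the 7 libraries. All 5 genes passed the filter of a mean of at least 10 normalized reads, as did 16900 genes in all. The lowest count of any of them was 33 reads, for Fam110c in p53 ko replicate 1. Over all genes tested, p53 ko replicate 1 and p53ko Mdm2 C462A ki replicate 2 stood apart on the first and second principal component, which carried 44.3% and 24.9% of the variance. The differences of the 5 genes are also given without them. Mdm2 had 1746, 1994 and 1914 normalized reads in p53 ko, 1575 and 2334 in p53Mdm2 ko and 2033 and 2887 in p53ko Mdm2 C462A ki, and Trp53 had 687 to 1775 over the 7 libraries. The labels do not say which exons the alleles remove, and a total over the gene includes reads outside a deleted part, so these levels check no label.

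In p53 ko, 3 libraries gave Pla2g4b 103, 109 and 111 normalized reads. The p53Mdm2 ko libraries gave 535 and 767, and the p53ko Mdm2 C462A ki libraries 580 and 530. Every Mdm2-defective library was at least 4.77 times as high as the highest p53 ko library, the widest gap of the 5 genes, and the p53 ko libraries differed from each other by no more than 1.08 times. The group means were 107.5 ± 4.307 (SD, n = 3), 651.4 ± 164.1 (n = 2) and 555.2 ± 35.56 (n = 2), which are 6.06 and 5.17 times the p53 ko mean. On the deposited log2-like scale the differences from p53 ko were 2.38 (SE 0.237) for p53Mdm2 ko and 2.18 (SE 0.237) for p53ko Mdm2 C462A ki. Neither library that stands apart carried them: without both, the differences were 2.35 and 2.21.

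Jmjd7, which encodes a Jumonji domain protein, is the annotated gene just before Pla2g4b. In the RefSeq annotation 829 bases lie between them, without overlap. The annotation used for counting is not stated, so whether it kept their reads apart is not known. Jmjd7 had 13.6, 8.35 and 5.39 normalized reads in p53 ko, 65.9 and 76.0 in p53Mdm2 ko and 84.2 and 54.7 in p53ko Mdm2 C462A ki. All 4 Mdm2-defective libraries lay above all p53 ko libraries, as for Pla2g4b and for 4.78% of all genes tested. The difference on the log2-like scale was 1.85 for p53Mdm2 ko (SE 0.292, limma adjusted p = 1) and 1.80 for p53ko Mdm2 C462A ki (SE 0.292, limma adjusted p = 0.437), and neither passed. The deposited scale compresses differences at low counts: on plain log2 scales (voom, TMM or total read scaling, or a pseudocount of 1) the values were 2.91 to 2.96 and 2.85 to 2.94. Jmjd7 took between 4.63% and 12.7% of the reads of the pair in the 7 libraries, and these shares overlapped between genotypes. The other neighbour, Sptbn5, overlaps Pla2g4b in the RefSeq annotation and was not matched to a row. Without a stated annotation or strand setting, reads of that overlap cannot be assigned with certainty.

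Ica1 had 39.1, 149 and 154 normalized reads in p53 ko, 503 and 551 in p53Mdm2 ko and 470 and 519 in p53ko Mdm2 C462A ki. The 4 Mdm2-defective libraries were alike and lay 3.05 times or more above the highest p53 ko library. The low control was p53 ko replicate 1, which stands apart over all genes as well, and the p53 ko libraries differed by up to 3.95 times. Group means were 113.9 ± 64.89 (n = 3), 527.0 ± 34.07 (n = 2) and 494.3 ± 34.29 (n = 2). The differences from p53 ko on the log2-like scale were 2.20 and 2.11 (SE 0.504 each), and 1.67 and 1.52 without both libraries that stand apart.

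Fam110c was the gene with the fewest reads, at 30.0, 33.4 and 41.0 normalized reads in p53 ko. It had 268 and 109 in p53Mdm2 ko and 150 and 298 in p53ko Mdm2 C462A ki. Each Mdm2-defective genotype thus held 1 higher and 1 lower library, and the lowest of the 4 was still 2.67 times the highest p53 ko library. Group means were 34.8 ± 5.625 (n = 3), 188.8 ± 112.2 (n = 2) and 224.2 ± 104.5 (n = 2). The Mdm2-defective means were 5.43 and 6.44 times the p53 ko mean. The deposited scale compresses differences at such low counts, and the plain log2 scales gave 2.28 to 2.35 for p53Mdm2 ko. The differences from p53 ko were 1.86 and 2.13 on the log2-like scale (SE 0.441 each). Leaving out 1 library moved the first between 1.28 (without p53Mdm2 ko replicate 1) and 2.44 (without p53Mdm2 ko replicate 2). Leaving out both libraries that stand apart gave 1.79 and 1.61.

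The higher libraries for Fam110c, p53Mdm2 ko replicate 1 and p53ko Mdm2 C462A ki replicate 2, were also the higher ones of their genotypes for Xdh (751 against 430.0 and 2127 against 943 normalized reads) and those with reads of Y-linked genes. The 4 Y-linked genes listed summed to 4135 and 5642 normalized reads there, against 54.1 and 24.1 in the other replicates of the same genotypes. In p53 ko they summed to 4488 in replicate 2 and to 8.18 and 38.8 in replicates 1 and 3, where Fam110c was 33.4, 30.0 and 41.0. The 12 epithelial markers listed summed to 2841 and 2173 normalized reads in p53Mdm2 ko replicates 1 and 2, 476 and 2640 in p53ko Mdm2 C462A ki replicates 1 and 2, and 559 to 1211 in p53 ko. Krt19, a keratin of simple epithelia, was the most abundant of them, at 1240 and 1911 in p53Mdm2 ko, 178 and 1774 in p53ko Mdm2 C462A ki and 204 to 754 in p53 ko. On average over the 6 markers that passed the filter on low values, the log2-like level lay 1.88 and 1.28 above the p53 ko mean in the 2 libraries with more Fam110c and Xdh, and at -0.31 and -0.37 in the other Mdm2-defective libraries. The p53 ko libraries themselves lay at 0.44, -0.17 and -0.27. In p53Mdm2 ko replicate 1 Krt18 had 661.5, Krt8 327 and Krt14 204 normalized reads, against 39.9, 9.01 and 1.29 in replicate 2. Cdh1 and Krt7 were highest in p53 ko replicate 1, where Fam110c and Xdh were lowest, at 345 and 355. Cdh1 had 61.2 and 159 in the 2 libraries with more Fam110c and Xdh and 7.42 to 29.1 in the rest. Krt7 had 329 and 111 in those 2 and 72.2 to 162 in the rest. Of the same list, Krt5, Esrp1 and Grhl2 were at or near 0, with at most 5.29 normalized reads in any library. The part of these in the Fam110c and Xdh levels was not tested.

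Tbc1d2 was the only one of the 5 genes whose Mdm2-defective libraries overlapped p53 ko. It had 80.9, 195 and 57.2 normalized reads in p53 ko, 431 and 482 in p53Mdm2 ko and 330 and 146 in p53ko Mdm2 C462A ki. Replicate 2 of p53ko Mdm2 C462A ki, a library that stands apart, lay below p53 ko replicate 2, so these groups overlapped. Group means were 111.0 ± 73.64 (n = 3), 456.5 ± 35.42 (n = 2) and 237.6 ± 130.3 (n = 2). The log2-like difference from p53 ko was 2.01 for p53Mdm2 ko and 1.03 for p53ko Mdm2 C462A ki (SE 0.525 each). The second value rested on single libraries: it ranged from 0.49, without p53ko Mdm2 C462A ki replicate 1, to 1.57, without p53ko Mdm2 C462A ki replicate 2. It was 1.45 with both libraries that stand apart left out.

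Xdh had 134, 168 and 220.0 normalized reads in p53 ko, 751 and 430.0 in p53Mdm2 ko and 943 and 2127 in p53ko Mdm2 C462A ki. The 3 groups did not overlap, and the order was p53 ko, p53Mdm2 ko, p53ko Mdm2 C462A ki. The lowest Mdm2-defective library was 1.95 times the highest p53 ko library, the narrowest gap among the 4 genes with one. Group means were 173.9 ± 43.51 (n = 3), 590.3 ± 226.7 (n = 2) and 1535 ± 837.3 (n = 2), or 3.39 and 8.83 times the p53 ko mean. The differences were 1.63 and 2.92 on the log2-like scale (SE 0.43 each). The second fell to 2.34 without p53ko Mdm2 C462A ki replicate 2, and without both libraries that stand apart the values were 1.47 and 2.18.

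**Figure D1:**
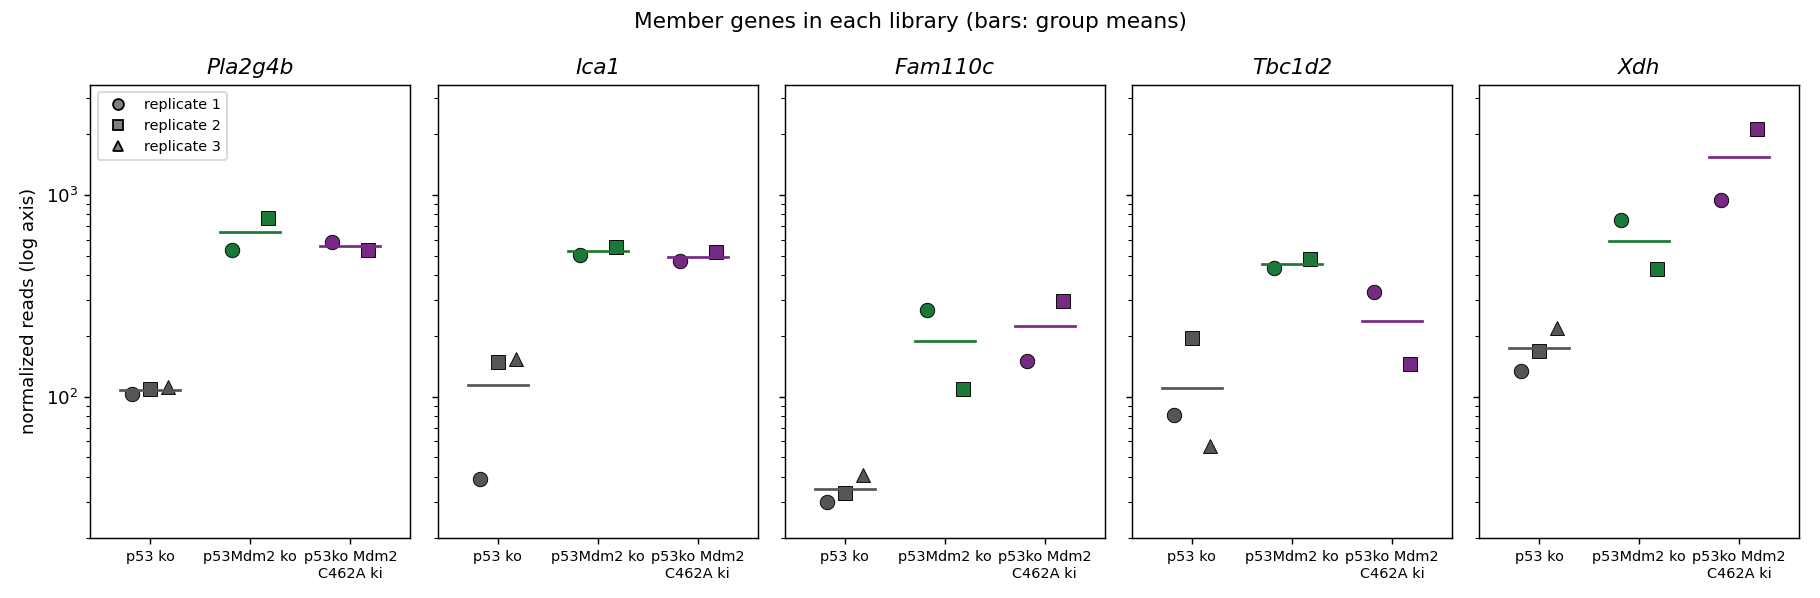
Normalized reads (log axis) of the 5 genes in each library, by genotype; symbols mark the replicate number and horizontal bars the group means. Tbc1d2 is the gene whose Mdm2-defective libraries overlap p53 ko (146 against 195 normalized reads), and Pla2g4b has the tightest p53 ko libraries (103 to 111).

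The rule that chose the genes asks for group means, so it is of use to know how common it is for whole groups to separate. All 5 genes had both p53Mdm2 ko libraries above all 3 p53 ko libraries, as did 8.99% of all genes tested. For p53ko Mdm2 C462A ki this held for 4 of the 5, against 14.1% of all genes. The same 4 had all 4 Mdm2-defective libraries above all p53 ko libraries, against 4.78% of genes, while 4.87% had all 4 below. With both differences at least 1 on the log2-like scale as well, the share was 0.45% (76 genes). Since these contrasts chose the members, nothing follows from these shares. No gene at all passed limma's test in either contrast (0% of 16900 at an adjusted p under 0.05; at an unadjusted p under 0.05, 3% for p53Mdm2 ko and 10.4% for p53ko Mdm2 C462A ki), and both contrasts share the 3 p53 ko libraries.

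The tested contrast compared the C462A knock-in with the absence of Mdm2. None of the 5 passed limma's test between p53ko Mdm2 C462A ki and p53Mdm2 ko, nor did any other gene (0% of 16900; 2.98%, or 503 genes, had an unadjusted p under 0.05). Xdh was higher with the substitution, 1535 ± 837.3 against 590.3 ± 226.7 normalized reads (n = 2 each), with both libraries above both of p53Mdm2 ko. Its difference was 1.29 on the log2-like scale (SE 0.471, 95% interval 0.16 to 2.42, limma unadjusted p = 0.0316, adjusted p = 1). No overlap in that direction was seen in 15.8% of all genes. The library with the most Xdh, p53ko Mdm2 C462A ki replicate 2, had Y-linked reads and more epithelial marker reads than replicate 1, and their part in this difference was not tested. Without it the difference was 0.71, and over the alternatives its adjusted p ran from 0.39 to 1.

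Tbc1d2 pointed the other way, with 237.6 ± 130.3 normalized reads against 456.5 ± 35.42 (n = 2 each). Both p53ko Mdm2 C462A ki libraries lay below both p53Mdm2 ko libraries, as in 17.1% of all genes. The difference was -0.98 on the log2-like scale (SE 0.575, 95% interval -2.37 to 0.40, limma adjusted p = 1). It was -0.44 without p53ko Mdm2 C462A ki replicate 2 and -1.53 without replicate 1 of that genotype.

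For the remaining 3 genes the groups overlapped. Pla2g4b differed by -0.20 on the log2-like scale (95% interval -0.83 to 0.42), Ica1 by -0.09 (-1.42 to 1.24) and Fam110c by 0.27 (-0.89 to 1.43), each with a limma adjusted p = 1. The intervals are not adjusted for the number of genes. Their spread is shared over all 7 libraries, p53 ko included. For Ica1 the p53 ko libraries differed by up to 3.95 times, and the 2 libraries of each Mdm2-defective genotype by no more than 1.10 times. The Ica1 interval, which reaches beyond 1 on the log2-like scale either way, thus holds the scatter of p53 ko. With 2 libraries a group, similarity of the genotypes is not shown. The interval was narrowest for Pla2g4b. Leaving out single libraries turned the sign for Pla2g4b (0.05 without p53Mdm2 ko replicate 2) and for Fam110c (-0.31 without p53Mdm2 ko replicate 2 and -0.18 without p53ko Mdm2 C462A ki replicate 2).

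**Figure D2:**
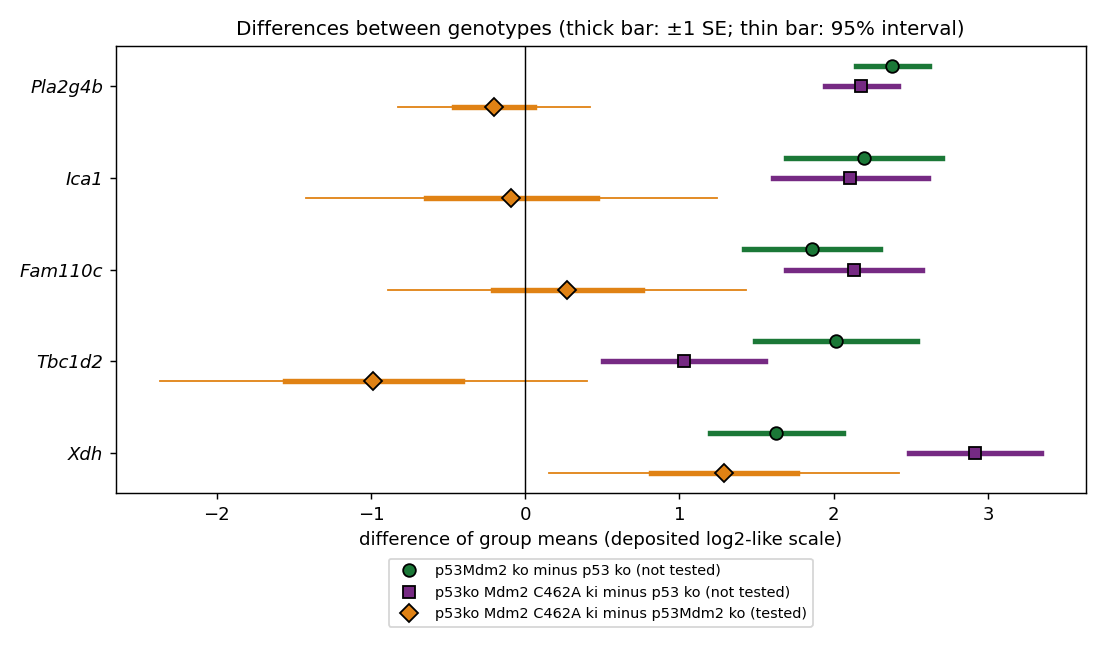
Differences of group means on the deposited log2-like scale for the 5 genes; thick bars are ±1 SE and thin bars the 95% interval of the tested contrast. Both contrasts with p53 ko, which chose the genes, lie to the right of 0, and the contrast between the Mdm2-defective genotypes spans 0 except for Xdh (0.16 to 2.42, not adjusted).

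Levels can be compared between genes only per length. Per kb of annotated exon (GENCODE, all exons of a gene merged), Ica1 was the highest of the 5 in p53 ko at 35.1 normalized reads per kb, followed by Tbc1d2 at 20.5, Xdh at 18.95, Pla2g4b at 18.4 and Fam110c at 11.3. There Ica1 ran from 12.1 to 47.6 and Tbc1d2 from 10.5 to 35.9, so the first 4 did not differ beyond their spread, and Pla2g4b (17.6 to 19.1) lay above Fam110c (9.71 to 13.3). In p53Mdm2 ko the order was Ica1 (162.5), Pla2g4b (112), Tbc1d2 (84.1), Xdh (64.3) and Fam110c (61.1). There Ica1 lay above Pla2g4b and Pla2g4b above Tbc1d2 without overlap, and the last 3 overlapped. In p53ko Mdm2 C462A ki the order was Xdh (167), Ica1 (152), Pla2g4b (95.2), Fam110c (72.6) and Tbc1d2 (43.8). Xdh ran from 103 to 232 and overlapped Ica1 at 145 and 160, and of the neighbours Ica1 and Pla2g4b did not overlap. These were genes of modest level. In p53 ko they stood between the 15.4th (Fam110c) and 32.0th (Xdh) percentile of normalized reads among the genes tested, without correction for length. In the Mdm2-defective genotypes they stood between the 32.2nd (Fam110c in p53Mdm2 ko) and the 69.1st (Xdh in p53ko Mdm2 C462A ki).

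The 5 genes did not share a single profile. Likeness was measured as the root-mean-square (RMS) difference of log2-like values over the 7 libraries after each gene's own mean was subtracted, a description over 7 libraries that share 3 controls. The closest pair was Fam110c and Xdh at 0.44, both highest in p53ko Mdm2 C462A ki replicate 2. Next came Pla2g4b and Ica1 at 0.48, which were flat across the 4 Mdm2-defective libraries. The farthest pair was Tbc1d2 and Xdh at 1.24.

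The 3 most alike were then found for each of the 5 among 11401 other tested genes with a mean of at least 100 normalized reads. For Ica1 they were Rbm20, a splicing regulator (RMS 0.255), the membrane protein gene Tmem144 (0.355) and Tfrc, the transferrin receptor that takes up iron (0.396). For Pla2g4b they were Eomes, a T-box transcription factor of early development (0.466), Ica1 itself (0.48) and Clcn6, a chloride transporter of late endosomes (0.485). Eomes had 21.8, 59.4 and 38.8 normalized reads in p53 ko, 108 and 231 in p53Mdm2 ko and 133 and 232 in p53ko Mdm2 C462A ki. For Fam110c they were Rasgef1b (0.411), Nceh1, a cholesterol ester hydrolase (0.423), and Xdh (0.436). For Xdh they were Cp, the copper-carrying ferroxidase ceruloplasmin (0.396), Nipal3 (0.432) and Fam110c (0.436). For Tbc1d2 they were Parvb, a focal adhesion protein (0.422), Gfod1 (0.47) and Slc5a3, a myo-inositol transporter (0.488). Parvb had 289, 710 and 201 normalized reads in p53 ko, 767 and 922 in p53Mdm2 ko and 503 and 329 in p53ko Mdm2 C462A ki. It shares with Tbc1d2 the high second p53 ko replicate. These genes were picked for their profiles, so their values are no test.

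The genes next to the 5 on the chromosome are given for comparison. Apart from Jmjd7, the tested neighbours were Glcci1 beside Ica1, Sh3yl1 and Lamb1 on either side of Fam110c, Coro2a beside Tbc1d2 and Ehd3 beside Xdh, and in none of the 5 did all 4 Mdm2-defective libraries lie above p53 ko, against 4.78% of all genes tested. Glcci1 had 363 to 514 normalized reads in p53 ko and 285 to 686 in the Mdm2-defective libraries. Coro2a had 41.8 to 87.4 against 59.1 to 102. Ehd3 had 59.1 to 446 against 102 to 202. Sh3yl1 had 49.1 to 112 normalized reads in p53 ko and 156 and 166 in p53Mdm2 ko, without overlap, as in 8.99% of all genes tested. In p53ko Mdm2 C462A ki it had 74.97 and 135. Lamb1, a laminin gene, had 6999 in p53 ko replicate 1 and 19490 to 23320 in the other 6 libraries. The remaining neighbours Nxph1 (Ica1), Gabbr2 (Tbc1d2) and Srd5a2 (Xdh) were under the filter, at 0 to 8.82 normalized reads.

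**Figure D3:**
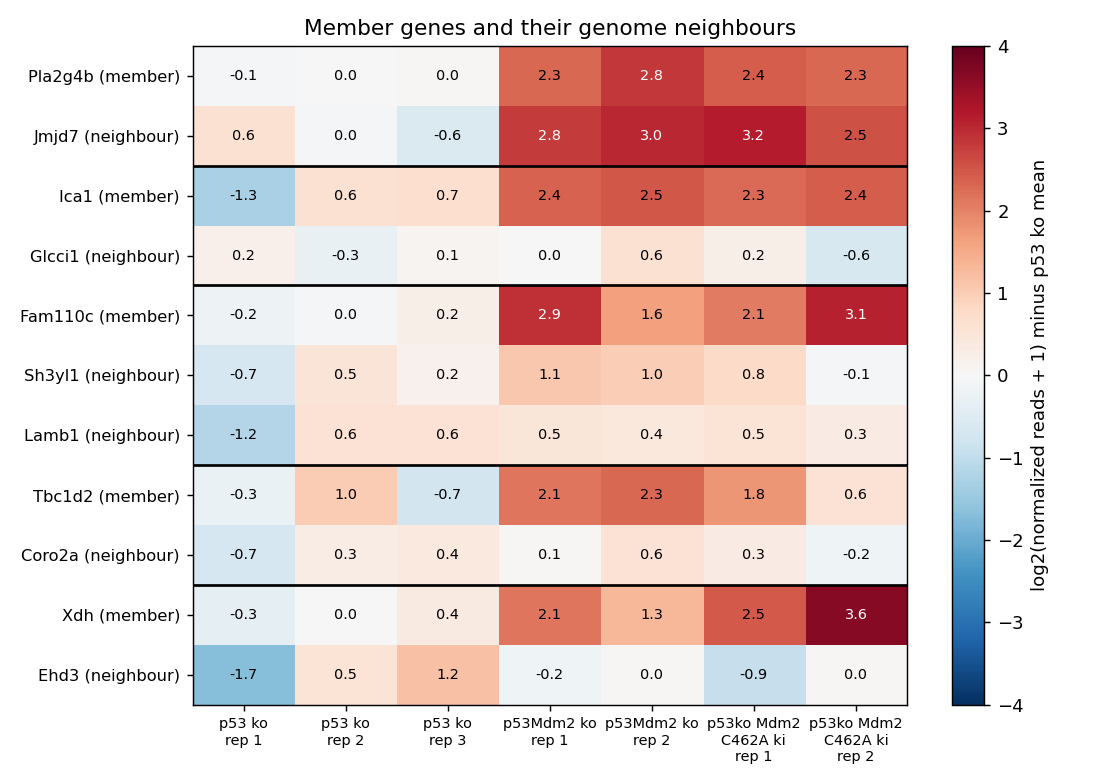
Log2(normalized reads + 1) minus the p53 ko mean for each of the 5 genes and its tested neighbours, in the 7 libraries; red is above and blue below the p53 ko mean. Jmjd7 is the neighbour that is high in all 4 Mdm2-defective libraries.

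Relatives of the 5 genes and genes of the same pathways were read from lists, and 0 of their members passed limma's test in either contrast with p53 ko. Among the phospholipase A2 genes, 15 of 24 were tested. Of these 8 lay above p53 ko in p53Mdm2 ko (median log2-like difference 0.03) and 8 in p53ko Mdm2 C462A ki (0.02), against 48.2% and 51.2% of all genes tested and medians of -0.01 and 0.01. The second median ran from -0.14 to 0.31 as libraries were left out. Pla2g4a, the main arachidonic acid-releasing relative of Pla2g4b, had 4304 ± 2048, 5586 ± 1137 and 3717 ± 508.3 normalized reads in p53 ko, p53Mdm2 ko and p53ko Mdm2 C462A ki (n = 3, 2 and 2), with overlapping groups. Its differences were 0.50 (limma adjusted p = 1) and -0.08 (limma adjusted p = 0.969), and 0.03 and -0.55 without p53 ko replicate 1. Pafah1b2 and Pla2g7, the others of highest level, had means of 5441 to 6742 and 921 to 1002 normalized reads in the 3 groups. The close means of Pla2g7 hide a wide spread within groups. It had 58.2, 1212 and 1494 in p53 ko, 1487 and 516 in p53Mdm2 ko and 1913 and 82.9 in p53ko Mdm2 C462A ki.

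Genes of eicosanoid synthesis, the pathway fed by phospholipase A2, were tested for 17 of 22, of which 11 lay above p53 ko in p53Mdm2 ko (median 0.11) and 10 in p53ko Mdm2 C462A ki (0.03). Both medians changed sign with the libraries left out (-0.04 to 0.12 and -0.04 to 0.10). In 2 of the 17, Ptgs1 and Aloxe3, all 4 Mdm2-defective libraries lay above all p53 ko libraries, against 4.78% of all genes tested. Both were singled out after their values were seen. Aloxe3, with a p53 ko mean of 8.65 normalized reads, passed the filter of 10 only through its Mdm2-defective libraries. Its place beside that share is therefore no support. Ptgs1, the constitutive cyclooxygenase, had 664, 2531 and 2091 normalized reads in p53 ko, 6360 and 3583 in p53Mdm2 ko and 3681 and 6041 in p53ko Mdm2 C462A ki. Its differences were 1.63 (SE 0.607, limma adjusted p = 1) and 1.62 (SE 0.607, limma adjusted p = 0.454), and did not pass. They were 1.05 and 1.03 without p53 ko replicate 1, and 1.05 and 0.67 without both libraries that stand apart. Aloxe3, an epidermal lipoxygenase, stayed low, at 7.55 to 10.2 against 21.9 to 31.1 normalized reads (differences 0.72 and 0.99, limma adjusted p = 1 and 0.437; 1.32 to 1.38 and 1.74 to 1.83 on the plain log2 scales). Ptgs2, the inducible cyclooxygenase and 1 of the 3 most abundant, had 6211 ± 4104 (n = 3), 14580 ± 10180 (n = 2) and 3188 ± 836.7 (n = 2) normalized reads in p53 ko, p53Mdm2 ko and p53ko Mdm2 C462A ki. The other was Ptges3, with means of 6611 to 8189.

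Around Xdh, 9 of 12 genes for molybdenum enzymes and their cofactor were tested. They lay above p53 ko in 6 for p53Mdm2 ko (median 0.06) and in 8 for p53ko Mdm2 C462A ki (0.24). The first median was below 0 (-0.07) in 1 of the alternatives, without p53Mdm2 ko replicate 1. Aox1, the aldehyde oxidase that is the nearest relative of Xdh, had 108, 184 and 249 normalized reads in p53 ko, 252 and 207 in p53Mdm2 ko and 335 and 318 in p53ko Mdm2 C462A ki. The last group lay above p53 ko without overlap, as in 14.1% of all genes tested. Its difference was 0.86 (SE 0.35, limma adjusted p = 0.475), and 0.57 without p53 ko replicate 1. Mocos, which matures the cofactor for Xdh and Aox1, had 106 to 118 normalized reads in p53 ko, 208 and 90.1 in p53Mdm2 ko and 255 and 251 in p53ko Mdm2 C462A ki (difference 1.06 for the last, limma adjusted p = 0.437). Suox, sulfite oxidase, was at 384 to 425 in p53 ko, 694 and 792 in p53Mdm2 ko and 530 and 453 in p53ko Mdm2 C462A ki, with differences of 0.82 and 0.24 (limma adjusted p = 1 and 0.70), the second 0.13 without p53ko Mdm2 C462A ki replicate 1. Mocos and Suox were singled out after their values were seen. The most abundant of the list were Mosc2, Mocs2 and Mocs1, with group means of 719 to 1449 normalized reads.

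Xdh acts late in the breakdown of purines. Of the purine breakdown and salvage genes, 18 of 23 were tested, of which 9 lay above p53 ko in p53Mdm2 ko (median -0.02) and 6 in p53ko Mdm2 C462A ki (-0.13). The first median was 0.11 without both libraries that stand apart. Uox, which acts on the product of Xdh, had at most 1.76 normalized reads in any library. Ada, adenosine deaminase, which acts upstream of Xdh and was singled out after its values were seen, had 807, 413 and 690.3 normalized reads in p53 ko, 395 and 219 in p53Mdm2 ko and 206 and 108 in p53ko Mdm2 C462A ki. All 4 Mdm2-defective libraries were thus lower than p53 ko, as in 4.87% of all genes. The differences were -1.01 (SE 0.428, limma adjusted p = 1) and -1.90 (SE 0.428, limma adjusted p = 0.437), the first -0.61 without p53Mdm2 ko replicate 2. The salvage genes Aprt and Adk and the deaminase gene Ampd2, the most abundant of the list, had group means of 3021 to 3332, 2343 to 3538 and 2434 to 2721 normalized reads.

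Of the TBC domain genes, 36 of 40 were tested. Of these 12 lay above p53 ko in p53Mdm2 ko (median -0.08), where Tbc1d2 had its larger difference, and 24 in p53ko Mdm2 C462A ki (0.21). The second median was 0.06 without p53ko Mdm2 C462A ki replicate 2. Tbc1d2b, the nearest relative, had 2392 ± 578.8, 2088 ± 492.9 and 3413 ± 835.8 normalized reads in p53 ko, p53Mdm2 ko and p53ko Mdm2 C462A ki (differences -0.19 and 0.52, limma adjusted p = 1 and 0.581). As libraries were left out, these ran from -0.43 to 0.05 and from 0.26 to 0.94. Tbc1d9b, Rabgap1 and Tbc1d1 had the highest levels, with group means of 2136 to 3573. Rab7 and Rac1, the GTPases tied to Tbc1d2, had group means of 4621 to 5212 and 10840 to 15060 normalized reads. Their list of 12 genes had 7 above p53 ko in both contrasts (medians 0.03 and 0.09, and -0.05 to 0.03 and 0.03 to 0.21 as libraries were left out). Ccz1, a subunit of the factor that activates Rab7, was the third most abundant at 1922 to 2046.

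Of the 3 relatives of Fam110c 2 were tested, and neither passed. Both lay below p53 ko in both contrasts (medians -0.45 and -0.55). Fam110b had 843 to 1206 normalized reads in p53 ko, 581 and 685 in p53Mdm2 ko and 812 and 631 in p53ko Mdm2 C462A ki. All 4 Mdm2-defective libraries lay below p53 ko, as in 4.87% of all genes tested. The differences of Fam110b were -0.60 (SE 0.237, limma adjusted p = 1) and -0.42 (SE 0.237, limma adjusted p = 0.586), the second -0.25 without p53ko Mdm2 C462A ki replicate 2. Fam110a, at 315 to 573 in p53 ko and 191 to 366 in the Mdm2-defective libraries, overlapped, with differences of -0.30 and -0.67 (limma adjusted p = 1 and 0.556) that were both -0.08 without both libraries that stand apart. Fam110d, listed under its older symbol Grrp1, had at most 1.08 normalized reads in any library.

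Among relatives and partners of Ica1, 7 of 8 were tested and 4 lay above p53 ko in each contrast (medians 0.05 and 0.20). The second median was 0.03 without p53ko Mdm2 C462A ki replicate 2 and -0.16 without both libraries that stand apart, and the first -0.08 without p53Mdm2 ko replicate 1. Ica1l, the nearest relative, had 10.9, 87.2 and 94.9 normalized reads in p53 ko, 90.0 and 218 in p53Mdm2 ko and 37.1 and 34.4 in p53ko Mdm2 C462A ki. Like Ica1 it was lowest in p53 ko replicate 1, but the p53ko Mdm2 C462A ki libraries lay within the p53 ko range. Its differences were 1.21 and -0.36 (SE 0.69 each, limma adjusted p = 1 and 0.892). Without p53 ko replicate 1 they were 0.55 and -1.03, and without p53Mdm2 ko replicate 1 the first was 1.77. Pick1, another BAR-type protein, was singled out after its values were seen, at 397 to 421 in p53 ko, 489 and 388 in p53Mdm2 ko and 642 and 665 in p53ko Mdm2 C462A ki (difference 0.65 for the last, limma adjusted p = 0.437). Rab2a, to whose product Ica1 binds, had group means of 6379 to 6881, Arfip1 2736 to 2854 and Ptprn, a secretory granule protein, 2299 to 3127 normalized reads. Within p53 ko, Ptprn ran from 357 in replicate 1 to 4396 in replicate 2.

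**Figure D4:**
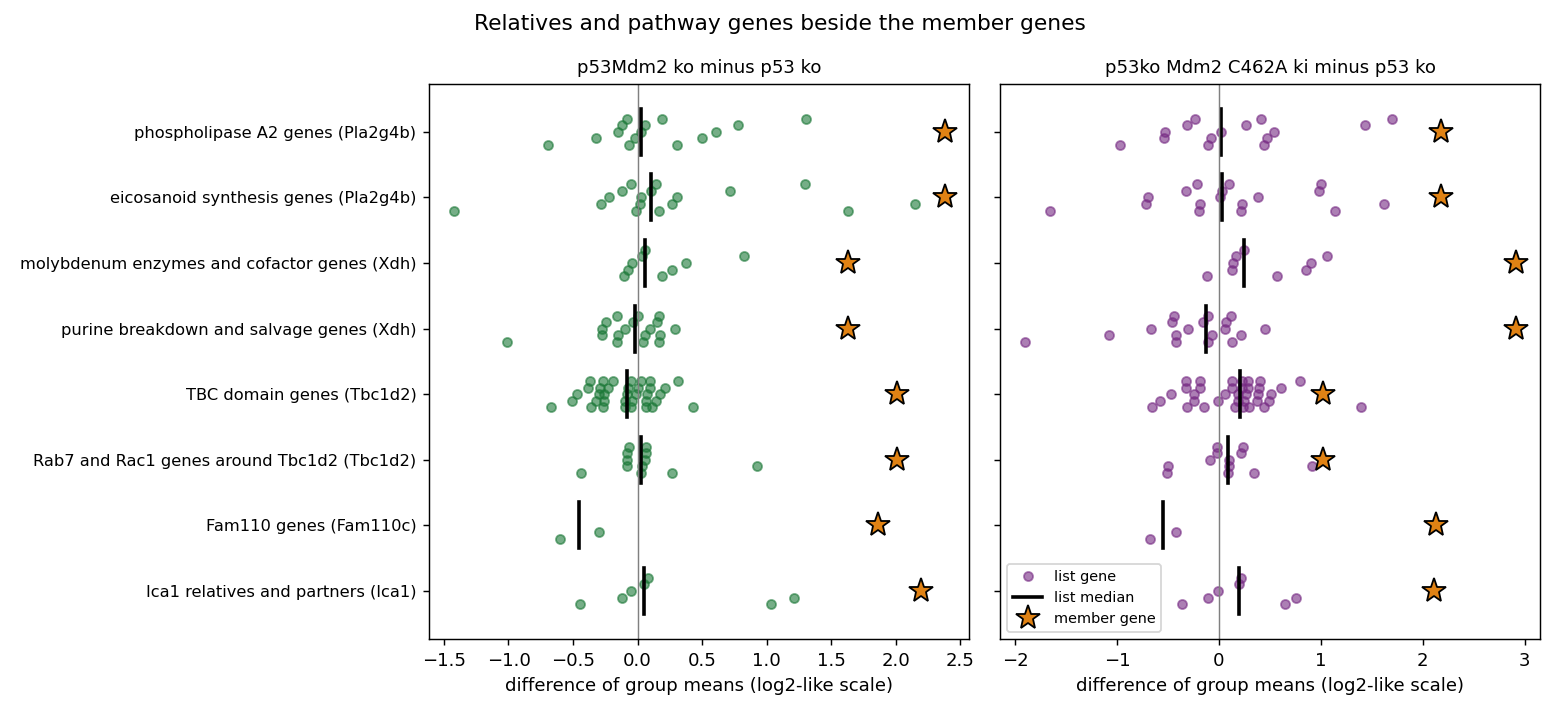
Differences from p53 ko on the log2-like scale for genes of 8 lists (dots; vertical bars are list medians) beside the gene the list was drawn around (star). List medians lie between -0.55 and 0.24, and the genes chosen for their height lie at 1.03 to 2.92.

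The label of fibroblasts was checked against 12 markers, all of which passed the filter. They summed to 1089000 to 2160000 normalized reads in p53 ko, 947300 and 1442000 in p53Mdm2 ko and 1008000 and 1488000 in p53ko Mdm2 C462A ki, with overlapping genotypes, and Col1a1, Fn1, Col1a2 and Vim were the most abundant. Within the list 2 of the 12 genes lay below p53 ko in all 4 Mdm2-defective libraries, against 4.87% of all genes tested. They were the collagens Col1a1 (188000 to 392300 against 458000 to 689100) and Col3a1 (28420 to 96700 against 98190 to 166700), named after their values were seen. Neither passed limma's test (adjusted p = 1 for both in p53Mdm2 ko, 0.591 and 0.586 in p53ko Mdm2 C462A ki). Col1a2, another collagen chain, had 3456 normalized reads in p53 ko replicate 1 against 175100 to 547600 in the other 6 libraries. Vim, Col3a1, Col6a1 and S100a4 were highest in that library. Thy1 and Fn1 were lowest there, at 99.1 against 6592 to 37390 and at 156800 against 344700 to 524700. That library was also the lowest of the 7 for Pla2g4b, Ica1, Fam110c and Xdh. The part of these marker levels in the levels of the 5 genes was not tested. The 8 macrophage markers summed to 542 to 3161 in p53 ko, 480.2 and 1570 in p53Mdm2 ko and 427 and 1440.0 in p53ko Mdm2 C462A ki. The 8 endothelial markers summed to 181 to 815, 984 and 1105, and 565 and 631, in the same order. Kdr, a receptor of the growth factor VEGF, made up most of the p53Mdm2 ko sums, with 693 and 994 against 22.7 to 443 in p53 ko and 312 and 503 in p53ko Mdm2 C462A ki (p53Mdm2 ko against p53 ko, limma adjusted p = 1). Pecam1 and Cdh5, which define endothelium, had group means of at most 9.25. Tek, Erg, Emcn, Tie1 and Vwf of the same list had group means of 75.2 to 89.0, 41.2 to 118, 9.94 to 39.7, 17.9 to 24.2 and 10.6 to 17.2. The part of the endothelial markers in the levels of the 5 genes was not tested. The 7 neural markers found summed to 1841 to 12440, 5051 and 13060, and 2788 and 3004. In such bulk libraries fewer cells of a type and less RNA per cell cannot be told apart.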

How the data were processed

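RNA was extracted with TRIzol, made into TruSeq libraries and sequenced as single 50-base reads on a HiSeq 2000, per the labels' protocols. The submitters' processing notes list Bowtie2 2.1.0, CASAVA 1.8.2 and DESeq 1.14.0, with mm9 as the build, and give them no roles. Of the counter, the annotation and the strand, nothing is given in the sources used here. The authors deposited log2-like values, variance-stabilized, with 3.36 at 0 reads. Inverting that form gave normalized reads, and dividing by 1 step per library gave whole reads, within 0.05 of a whole number for 100% of values.

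Each library's group and number came from its title. Genes with a mean of at least 10 normalized reads were tested on the deposited values with limma 3.58.1 in R 4.3.3 (group means, mean-variance trend, all 7 libraries, two-sided, Benjamini-Hochberg over all genes tested, threshold 0.05). The code was tested on simulated data. The count total and the number of libraries limit precision.

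The 5 genes and all lists were chosen with earlier results of these data known. Named beside them are Mdm2 and Trp53, fixed closest relatives, the nearest annotated neighbours, the 3 most alike genes of each and the 3 most abundant genes of each list. Ptgs1, Aloxe3, Ada, Suox, Mocos, Pick1 and the single cell type markers (keratins, collagens, Kdr and others) were added after their values were seen. Alternatives changed the trend, weights, pseudocount, filter, scaling, groups fitted, replicate block and libraries included.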

Additional observations from a re-analysis of the deposited data

How the results depend on the processing

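All 5 genes kept the sign of both differences from p53 ko under all 19 alternatives. These differences chose the genes, so the kept signs are a description and no support. A difference of group means cannot change with the trend, the filter, the groups fitted or a library of the uninvolved genotype. Some alternatives (voom, TMM or total read scaling, the pseudocounts) left the log2-like scale for plain log2 scales, so the ranges below mix scales. The difference of p53Mdm2 ko ran from 2.13 to 2.63 for Pla2g4b, 1.67 to 2.48 for Ica1, 1.28 to 2.44 for Fam110c, 1.70 to 2.44 for Tbc1d2 and 1.24 to 2.02 for Xdh. That of p53ko Mdm2 C462A ki ran from 2.11 to 2.46 for Pla2g4b, 1.52 to 2.44 for Ica1, 1.61 to 2.68 for Fam110c, 0.49 to 1.57 for Tbc1d2 and 2.18 to 3.49 for Xdh. Between the Mdm2-defective genotypes, Pla2g4b ran from -0.45 to 0.05 without 1 library, the last without p53Mdm2 ko replicate 2. There Fam110c ran from -0.31 (without p53Mdm2 ko replicate 2) to 0.85 (without p53Mdm2 ko replicate 1), and was -0.18 both without p53ko Mdm2 C462A ki replicate 2 and with both libraries that stand apart left out. Against p53 ko, the p53Mdm2 ko difference without 1 library ran from -0.43 to 0.05 for Tbc1d2b (the last without p53Mdm2 ko replicate 2), from -0.26 to 0.80 for Mocos and from -0.08 to 0.24 for Pick1 (the lowest of both without p53Mdm2 ko replicate 1). The p53ko Mdm2 C462A ki difference of Pla2g4a was 0.02 with total read scaling, 0.23 with the replicate block, and ran from -0.55 to 0.23 without 1 library, above 0 without p53 ko replicate 2 (0.09), p53 ko replicate 3 or p53ko Mdm2 C462A ki replicate 2 (0.06). That of Ica1l was 0 with the replicate block and ran from -1.03 to 0 without 1 library. In each case the cause was not tested.

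With limma, 0 genes passed in any comparison under any alternative, except 1 gene in p53Mdm2 ko against p53 ko with both libraries that stand apart left out. It is Ifi202b (difference -6.7, adjusted p = 0.0315), named after its value was seen. At an unadjusted p under 0.05 the counts ran from 345 to 1091 for p53Mdm2 ko and from 638 to 2317 for p53ko Mdm2 C462A ki, each against p53 ko, and from 61 to 1519 between the Mdm2-defective genotypes; no other tool was run. With the replicate block 0 genes passed in all 3 comparisons, and 442, 1486 and 279 had an unadjusted p under 0.05. Deviations of same-numbered libraries correlated between -0.164 and 0.203. They were taken from the group mean, so those of 2 libraries in a group mirror each other. So few values cannot show whether the numbers pair the libraries. Groups of 2 and 3 libraries limit all intervals.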
